A study of Mus musculus with 12 samples.

Results

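The genes of lipid absorption were followed in colorectal tissue of mice with colitis-associated cancer (CAC), with and without swimming. They were 10 genes of the 18514 in the count matrix, taken by symbol: Apoa1, Apoa4, Apoc3, Apob, Mttp, Fabp1, Fabp2, Cd36, Fabp6 and Slc10a2. The 10 symbols were chosen by their read counts in these same 12 libraries, mainly for their difference between the Model and Ctrl groups, so their values are a description and no independent evidence of a direction. After the filter on low counts 9 of the 10 were among the 15484 genes tested, and Apoc3 was not. All mice were male C57BL/6, 4 weeks old at purchase, with 1 library per mouse and 3 mice in each of 4 groups. The Ctrl group received ordinary water, and the Model group received 1 injection of azoxymethane (AOM, 10 mg/kg), a colon carcinogen, followed by 3 cycles of 2% dextran sodium sulfate (DSS), which injures the colonic epithelium, in the drinking water. The Ctrl_Swim and Model_Swim groups had the same 2 treatments and swam for up to 90 min per day, and the untrained mice were placed in shallow water. The paper describes the swimming as a pretreatment, with training from 2 months before the experiment until its end. The colon was resected from below the cecum to the rectum, cleared of attached fat and shared among several assays, and which stretch of it, or how much tumor, gave the RNA is not stated in the sources used here.

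Absorptive cells of the intestine take up fatty acids and bile acids, carry them through the cytosol on small binding proteins, and export fat on lipoproteins. Apolipoprotein B is the scaffold of the chylomicron, the microsomal triglyceride transfer protein encoded by Mttp loads it with lipid, and apolipoproteins A-I, A-IV and C-III join the particle. Most of this program runs in the small intestine, bile acid recovery runs mainly in the ileum, and the healthy colon uses only some of these genes. The liver also expresses Apoa1, Apoc3, Apob, Mttp and Fabp1.

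The 250 bases before the RefSeq start site were searched for 4 motifs of factors that act in the intestine. The search describes the sequences, and whether these factors had a part in the levels was not tested. A window was given for 9 of the 10 genes (RefSeq, GRCm38.p6), 1 per gene, and Apoc3 had no entry. The windows of Cd36 and Apob belong to a start inside the listed span of the gene, and their other starts were not searched. The motifs were CAAAGTNCA for HNF4, TTTATNG for CDX, GATAAG for GATA and GTTAATNA for HNF1, on both strands, and no match of one overlapped a match of another. Of the 32851 windows of all genes, 1.19% held the HNF4 motif, 9.81% the CDX motif, 6.55% the GATA motif and 2.33% the HNF1 motif. Among the 9 windows, 2 held HNF4 (Apoa4 and Fabp2), 4 held CDX (Fabp1, Fabp2, Slc10a2 and Apob), 1 held GATA (Apob) and 1 held HNF1 (Slc10a2). A match is a run of letters and not a measured binding site. The windows of 5 genes are given 5′ to 3′ on the strand of the gene with matches in capitals: 4 that hold a match, and Fabp6, which holds none and is among the genes with the largest difference.
Apoa4, chr9:46240594-46240843, + strand: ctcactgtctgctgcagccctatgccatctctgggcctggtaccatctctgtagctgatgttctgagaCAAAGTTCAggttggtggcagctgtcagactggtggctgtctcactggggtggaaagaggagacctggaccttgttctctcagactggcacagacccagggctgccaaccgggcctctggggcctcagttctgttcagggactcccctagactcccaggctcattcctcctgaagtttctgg
Fabp2, chr3:122894822-122895071, + strand: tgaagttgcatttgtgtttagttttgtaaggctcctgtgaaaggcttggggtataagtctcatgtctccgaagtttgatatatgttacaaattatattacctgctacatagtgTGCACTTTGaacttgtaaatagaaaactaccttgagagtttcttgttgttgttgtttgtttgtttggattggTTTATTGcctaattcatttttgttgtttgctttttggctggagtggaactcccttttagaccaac
Fabp1, chr6:71199629-71199878, + strand: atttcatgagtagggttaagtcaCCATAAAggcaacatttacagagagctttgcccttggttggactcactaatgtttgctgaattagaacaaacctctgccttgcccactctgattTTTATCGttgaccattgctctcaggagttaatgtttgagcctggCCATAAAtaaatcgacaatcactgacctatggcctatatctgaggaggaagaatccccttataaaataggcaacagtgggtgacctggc
Fabp6, chr11:43601563-43601812, - strand: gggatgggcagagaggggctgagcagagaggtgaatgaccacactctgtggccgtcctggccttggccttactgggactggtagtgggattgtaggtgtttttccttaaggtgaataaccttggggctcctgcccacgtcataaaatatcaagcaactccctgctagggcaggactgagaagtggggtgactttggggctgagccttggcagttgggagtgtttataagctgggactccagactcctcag
Slc10a2, chr8:5105288-5105537, - strand: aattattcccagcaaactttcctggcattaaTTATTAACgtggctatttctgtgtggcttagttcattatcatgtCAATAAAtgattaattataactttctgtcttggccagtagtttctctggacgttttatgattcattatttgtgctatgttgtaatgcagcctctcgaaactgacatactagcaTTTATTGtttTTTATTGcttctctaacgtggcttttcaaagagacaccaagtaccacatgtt
The HNF4 match lay 182 bases before the start of Apoa4 and 137 bases before that of Fabp2. Fabp1 held 3 CDX matches, at 227, 133 and 89 bases before its start. Slc10a2 held 3 CDX matches as well, at 175, 62 and 52 bases, and its HNF1 match lay 219 bases before the start.

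The libraries held 17256953 to 19451055 counts. Levels are given as CPM (counts scaled to a library of 1e6 counts) after scaling by the trimmed mean of M-values (TMM), on which 3 counts correspond to 0.153 to 0.172 CPM. Marker genes of other cell types or positions set 3 libraries apart, and these were described before any comparison. Of 13 hepatocyte markers, 10 were highest in Ctrl mouse 3, and albumin (Alb) stood at 100.2 CPM there against 0.491 to 16.4 CPM in the other 11 libraries. In Model mouse 3 the 7 measured markers of the distal colon and rectum, the posterior Hox genes, summed to 42.8 CPM, against 280.3 and 268.6 CPM in Model mice 1 and 2 and 97.4 to 202.3 CPM in the other groups. The same Model mouse 3 had the highest summed level of 11 adipocyte markers, 692.4 CPM, with 204.1 to 577.1 CPM in the other 11 libraries. Acinar genes of the pancreas summed to 54340 CPM in Model mouse 1 and 26500 CPM in Model mouse 3 and to 200.6 to 706.9 CPM elsewhere.

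Between genes, levels were compared only per length, in FPKM (fragments per kilobase of transcript per 1e6 fragments), as group mean ± SD. Fabp2 was the most abundant of the 10 genes in every group, at 503.2 ± 30.4 FPKM in Ctrl and 170.8 ± 95.1 FPKM in Model (n = 3 each). In Ctrl mice Fabp6 followed with 89.7 ± 59.2 FPKM, and the lowest Fabp2 value (483.5 FPKM) lay above the highest Fabp6 value (131.0 FPKM). Then came Apoa1 (30.9 ± 30.9 FPKM), Apob (16.7 ± 3.22 FPKM) and Slc10a2 (15.3 ± 3.36 FPKM), and from Fabp6 down to Slc10a2 each neighbor overlapped the next. Slc10a2 did not overlap Cd36 (5.60 ± 1.92 FPKM) in Ctrl mice, while Cd36, Fabp1 (4.03 ± 4.52 FPKM), Apoa4 (2.999 ± 4.58 FPKM), Mttp (2.45 ± 1.45 FPKM) and Apoc3 (0.877 ± 1.52 FPKM) each overlapped the next in order. The order differed in the Model group: behind Fabp2 came Apob at 9.67 ± 0.874 FPKM and Cd36 at 8.89 ± 7.13 FPKM, while Fabp6 stood behind Slc10a2 at 3.76 ± 0.776 FPKM followed by Apoa1 at 1.01 ± 0.441 FPKM. Fabp6 and Apoa1 did not overlap in the Model group, and neither did Fabp2 and Apob. In Model_Swim mice Fabp6 was second again, at 18.9 ± 7.16 FPKM, and overlapped Slc10a2 (17.3 ± 3.53 FPKM) and Apob (16.9 ± 2.97 FPKM).

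**Figure D1:**
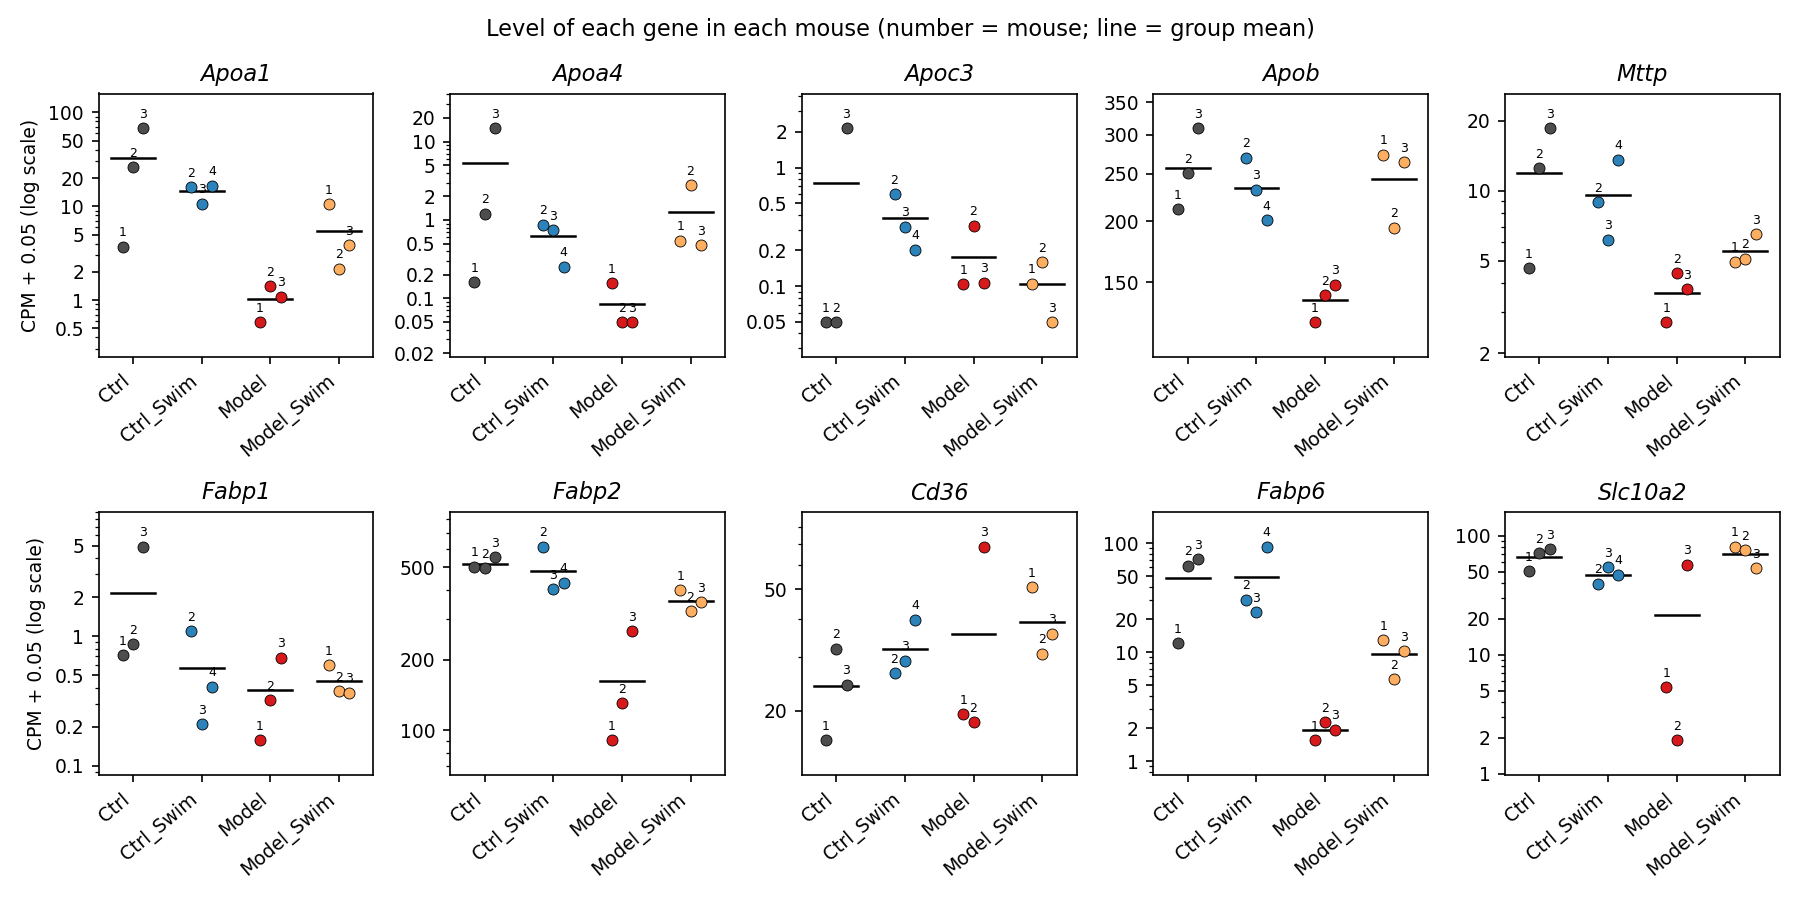
Level of each of the 10 genes in each mouse, as CPM + 0.05 on a log scale that differs between panels; points are mice with their numbers, lines are group means. Apoa1, Apob, Mttp, Fabp2 and Fabp6 are lower in all 3 Model mice than in any Ctrl mouse, and Slc10a2 is low in Model mice 1 and 2 and not in mouse 3.

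Apoa1 encodes the main protein of high-density lipoprotein, which is also carried on new chylomicrons. Its level was 3.64, 25.8 and 67.6 CPM in Ctrl mice 1 to 3 and 0.536, 1.36 and 1.03 CPM in Model mice 1 to 3. The Ctrl mice spread widely, and the lowest of them still lay above every Model mouse. In edgeR's quasi-likelihood test with Benjamini-Hochberg adjustment over all tested genes, Apoa1 had a log2 fold change of -5.04 for Model against Ctrl (SE 0.980, adjusted p = 0.00388). Here, as for each gene below, fewer absorptive cells and less RNA per cell cannot be told apart in whole tissue. In Ctrl_Swim mice 2 to 4 Apoa1 stood at 15.9, 10.6 and 16.5 CPM, inside the Ctrl range. In Model_Swim mice 1 to 3 it stood at 10.5, 2.12 and 3.82 CPM, all above the 3 Model mice. The difference between Model_Swim and Model, a log2 fold change of 2.48 (SE 0.964), did not pass the test (adjusted p = 0.306), with a 95% interval from 0.36 to 4.595.

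Apoa4 encodes an apolipoprotein that the intestine makes in response to fat. It was counted 2, 21 and 267 times in Ctrl mice 1 to 3 and 2, 0 and 0 times in Model mice 1 to 3. Ctrl mouse 3 thus held nearly all Ctrl counts, and Ctrl mouse 1 and Model mouse 1 each held 2 counts. Their order turned on the scaling: by TMM Ctrl mouse 1 was at 0.110 CPM and Model mouse 1 at 0.107 CPM, and per 10000 counts of 9 epithelial genes they were at 0.0774 and 0.103. Summed over the mice, 2 counts against 290 make a share 133-fold lower in Model, with a 95% interval from 36.6-fold to 1110-fold that covers counting error only. The fitted log2 fold change of -6.94 (SE 1.85, adjusted p = 0.0162, edgeR) depends on how the fit treats counts of 0. The call was also lost without Model mouse 2 (adjusted p = 0.0578) and by limma on log2(FPKM + 1) (-1.31, adjusted p = 0.135). In Model_Swim mice it was counted 9, 50 and 8 times, and in Ctrl_Swim mice 15, 13 and 4 times. Model_Swim exceeded Model without overlap, and the fitted log2 fold change was 4.81 (SE 1.91, adjusted p = 0.315).

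Apoc3, an inhibitor of lipoprotein lipase, was nearly absent. It was counted 0, 0 and 38 times in Ctrl mice, 10, 5 and 3 times in Ctrl_Swim mice, 1, 5 and 1 times in Model mice and 1, 2 and 0 times in Model_Swim mice. The 38 Ctrl counts all came from Ctrl mouse 3, and a count of 0 in Ctrl mice 1 and 2 allows up to 0.166 and 0.164 CPM. The Ctrl_Swim mice lay above the Model_Swim mice without overlap, 18 counts against 3 in sum, a share 5.98-fold lower in Model_Swim with a 95% interval from 1.75-fold to 31.7-fold that covers counting error only.

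Ctrl mouse 3 held the highest level of Apoa1, Apoa4, Apoc3, Apob, Mttp and Fabp1, and it was also the mouse with the highest hepatocyte markers (268.2 CPM summed over 13 genes, 76.7 and 85.4 CPM in Ctrl mice 1 and 2). Ctrl mouse 3 also had the highest sum of 18 markers of small-intestinal enterocytes (894.8 CPM, with 473.2 and 715.0 CPM in Ctrl mice 1 and 2). Whether RNA of liver or of small-intestinal cells contributed to these levels was not tested. Without this mouse the log2 fold change of Apoa1 was still -3.89 (SE 0.840, adjusted p = 0.0134), while Apoa4 (-3.85, adjusted p = 0.0891), Mttp (-1.22, adjusted p = 0.0678) and Fabp1 (-1.11, adjusted p = 0.333) no longer passed. Apoa1 and albumin were both highest in Ctrl mouse 3. Ctrl mouse 2 had 25.8 CPM of Apoa1 with 0.491 CPM of albumin. Model mice 1 and 2 had 0.536 and 1.36 CPM of Apoa1 with 16.35 and 16.02 CPM of albumin. These are values of single mice, given as a description.

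Apoa1, Apoc3, Apoa4 and Apoa5 lie next to each other on chromosome 9 (GRCm38, 46228630 to 46271921, a span of 43292 bases). Apoa5, an activator of triglyceride clearance, had at most 1.59 CPM, in Ctrl mouse 3, and was not tested. The 7 tested genes around the cluster (Zpr1, Bud13, Sik3, Pafah1b2, Tagln, Sidt2 and Pcsk7) had log2 fold changes from -0.26 (Pcsk7) to 0.21 (Sidt2) between Model and Ctrl. None of the 7 passed both cutoffs in edgeR or in DESeq2, and 1 of them, Sidt2, had an adjusted p below 0.05 (adjusted p = 0.0216), with 2 below 0.05 unadjusted. Of all 15484 tested genes 32.7% were below 0.05 by adjusted p and 7001 unadjusted.

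Apob was the apolipoprotein of the set with steady counts. Its level was 211.6, 250.6 and 309.2 CPM in Ctrl mice, 124.4, 141.1 and 148.3 CPM in Model mice, and 272.9, 193.7 and 264.0 CPM in Model_Swim mice. Every Model mouse lay below every other mouse of the study, Ctrl_Swim included (269.5, 231.7 and 200.6 CPM). For Model against Ctrl its log2 fold change was -0.90 (SE 0.166, adjusted p = 0.00312), which is under the 2-fold cutoff, and that between Model_Swim and Model was 0.82 (SE 0.166, adjusted p = 0.0936). Apob transcripts per 10000 counts of 9 epithelial genes were 148.5 to 210.3 in Ctrl and 119.2 to 150.7 in Model mice, so that on this scale the groups overlapped.

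Mttp, which encodes the lipid loader of apolipoprotein B, was at 4.58, 12.4 and 18.5 CPM in Ctrl mice and at 2.68, 4.36 and 3.73 CPM in Model mice. The groups did not overlap, although Ctrl mouse 1 exceeded Model mouse 2 by little. Mttp fell, with a log2 fold change of -1.72 for Model against Ctrl (SE 0.444, adjusted p = 0.0141), a call that was lost without Ctrl mouse 3 and by limma on log2(FPKM + 1) (-0.84, adjusted p = 0.0501). Per 10000 epithelial counts the Ctrl range of 3.21 to 12.6 overlapped the Model range of 2.57 to 4.38. In Model_Swim mice Mttp was at 4.90, 5.06 and 6.47 CPM, above all Model mice, with a log2 fold change of 0.61 (SE 0.444, adjusted p = 0.585). Ctrl_Swim mice had 8.88, 6.12 and 13.5 CPM.

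Fabp2, the intestinal fatty acid-binding protein, was the most even of the 10 genes among Ctrl mice, at 501.0, 493.5 and 552.5 CPM. Model mice had 90.4, 130.3 and 265.3 CPM, and Model_Swim mice had 398.5, 324.2 and 354.0 CPM. The 3 groups were separate, with Model_Swim between Model and Ctrl, and Model mouse 3 was the nearest of its group to the others. Fabp2 fell, with a log2 fold change of -1.67 for Model against Ctrl (SE 0.317, adjusted p = 0.00351), a 3.18-fold difference. Against Model, the Model_Swim group had a log2 fold change of 1.15 (SE 0.313, adjusted p = 0.188, 95% interval from 0.46 to 1.84). Without Model mouse 3 that value was 1.71 (SE 0.196, adjusted p = 0.000674) and passed both cutoffs. It was 0.858 (adjusted p = 0.200) without Model mouse 1 and 1.009 (adjusted p = 0.354) without Model mouse 2, and neither passed. Per 10000 epithelial counts Fabp2 was 351.4 to 379.0 in Ctrl and 86.7 to 269.7 in Model mice, with no overlap. In Ctrl_Swim mice it stood at 610.2, 402.3 and 428.0 CPM, around the Ctrl values.

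Fabp1, the liver-type fatty acid-binding protein of the small intestine and liver, was close to the counting limit. It was counted 12, 15 and 88 times in Ctrl mice and 2, 5 and 11 times in Model mice, 19, 3 and 7 times in Ctrl_Swim mice and 10, 6 and 6 times in Model_Swim mice. Only Ctrl mouse 3 stood clearly above the rest. For Model against Ctrl its log2 fold change was -2.63 (SE 0.917, adjusted p = 0.0475), and it lost the call in 14 of 21 alternatives, with adjusted p from 0.0169 to 0.333.

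Cd36 encodes a fatty acid translocase that is also abundant in adipocytes, capillaries and macrophages. It did not follow the other genes. Its level was 16.0, 31.9 and 24.3 CPM in Ctrl mice and 19.5, 18.3 and 68.7 CPM in Model mice, with a log2 fold change of 0.56 (SE 0.462, adjusted p = 0.372). Model mouse 3 was highest of all 12, Model_Swim mouse 1 was second at 50.6 CPM, and the groups overlapped. The same 2 mice had the highest summed adipocyte markers, 692.4 and 577.1 CPM. The gene most alike to Cd36 over the 12 libraries was Fabp4, the adipocyte fatty acid-binding protein (Pearson r = 0.976 over log2 CPM), and 7 of the 11 adipocyte markers were highest in Model mouse 3. Over the 12 libraries Cd36 had r = 0.915 with the summed adipocyte markers, -0.866 with those of the distal colon, 0.480 with those of endothelium and 0.320 with those of macrophages, given as a description. The part of these cells, or of the position along the colon, in the Cd36 level was not tested. Without Model mouse 3 the log2 fold change was -0.34 (SE 0.290, adjusted p = 0.391).

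Fabp6 encodes the ileal bile acid-binding protein, which carries bile acids through the enterocyte. It was at 11.98, 62.2 and 71.1 CPM in Ctrl mice, 30.2, 23.2 and 92.7 CPM in Ctrl_Swim mice, 1.501, 2.23 and 1.89 CPM in Model mice and 12.8, 5.60 and 10.2 CPM in Model_Swim mice. The 3 Model mice were the lowest of the study and close together, the Model_Swim mice came next, and Ctrl mouse 1 lay within the Model_Swim range. Fabp6 fell, with a log2 fold change of -4.69 for Model against Ctrl (SE 0.777, adjusted p = 0.00189), a 25.7-fold difference that passed in all 21 alternatives. Model_Swim exceeded Model by 2.35 on the log2 scale (SE 0.775, adjusted p = 0.256) and had a log2 fold change of -2.35 against Ctrl_Swim (SE 0.657, adjusted p = 0.0652), and neither passed. DESeq2 called both of these comparisons for Fabp6. The difference from Ctrl_Swim was -1.48 (adjusted p = 0.184) without Ctrl_Swim mouse 4, the highest of its group, and -1.19 (adjusted p = 0.407) with the replicate number as a block. Per 10000 epithelial counts Fabp6 was 8.40 to 48.4 in Ctrl and 1.44 to 2.24 in Model mice, with no overlap.

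Slc10a2 encodes the apical sodium-dependent transporter that takes up bile acids. Its level was 50.5, 71.5 and 77.4 CPM in Ctrl mice, 39.6, 54.4 and 47.1 CPM in Ctrl_Swim mice and 80.7, 75.8 and 53.3 CPM in Model_Swim mice. In Model mice 1 and 2 it was 5.31 and 1.85 CPM, and in Model mouse 3 it was 56.9 CPM, inside the Ctrl range. For Model against Ctrl its log2 fold change was -1.64 (SE 0.815, adjusted p = 0.139) with all mice and -4.20 (SE 0.381, adjusted p = 5.76e-05) without Model mouse 3. It was -1.175 (adjusted p = 0.290) without Model mouse 1 and -1.091 (adjusted p = 0.246) without Model mouse 2. By limma on log2(FPKM + 1) it was -2.11 (adjusted p = 0.0320) with all mice. Model_Swim against Model gave Slc10a2 a log2 fold change of 1.72 (SE 0.816, adjusted p = 0.391) with all mice and 4.29 (SE 0.382, adjusted p = 0.000109) without Model mouse 3. That value was 1.257 (adjusted p = 0.501) without Model mouse 1 and 1.172 (adjusted p = 0.529) without Model mouse 2. Slc51a, which encodes a subunit of the basolateral bile acid exporter, had the same pattern, with 0.858, 0.545 and 53.7 CPM in Model mice 1 to 3 and 48.4 to 84.6 CPM in the other 9 mice. The summed distal markers were low in Model mouse 3 and high in Model mice 1 and 2, and of the 7 markers 4 were lowest and 1 was highest of all 12 libraries in Model mouse 3. The position of the sampled tissue along the colon cannot be told apart from the difference between Model mouse 3 and its group, and its part in the Slc10a2 level was not tested.

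**Figure D2:**
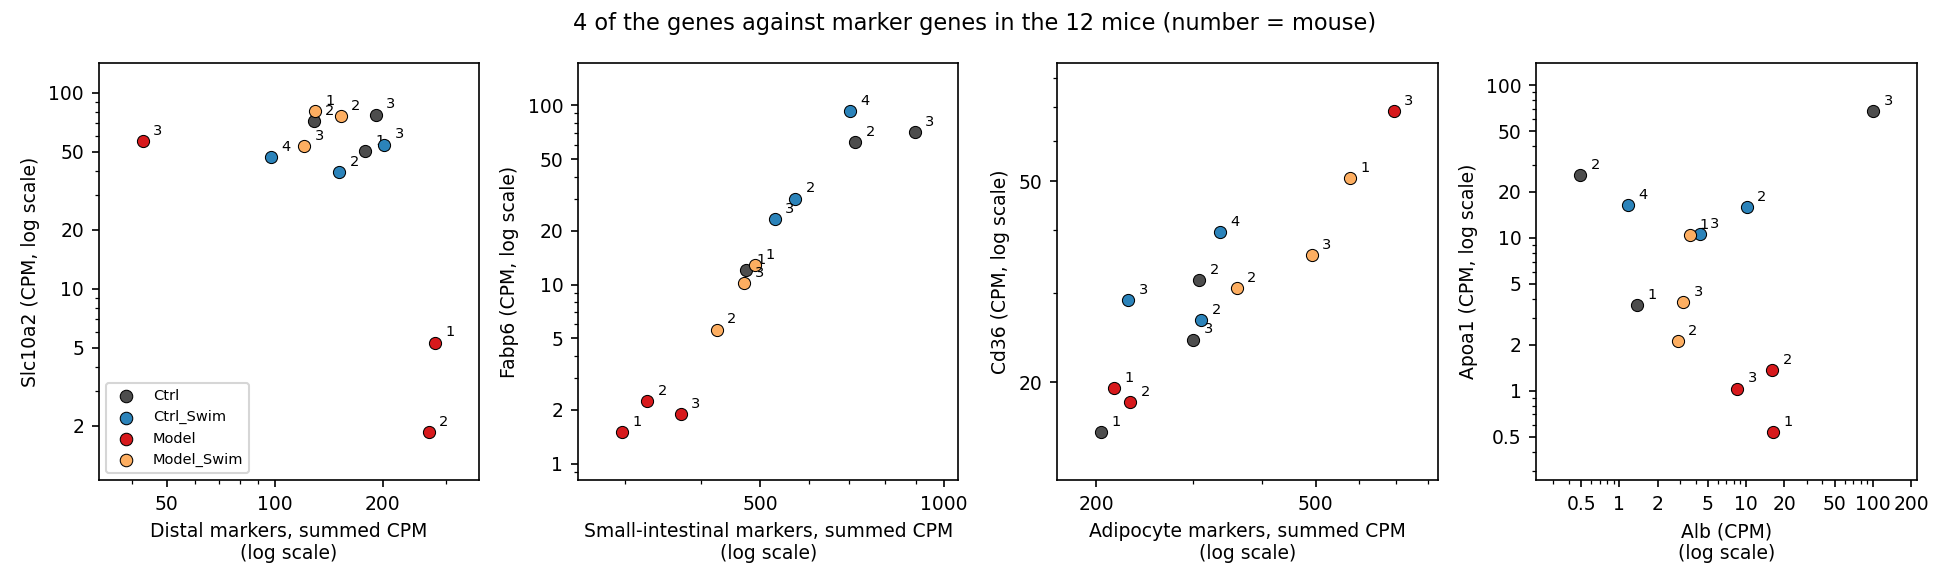
Levels of Slc10a2, Fabp6, Cd36 and Apoa1 (CPM) against the summed CPM of distal colon, small-intestinal and adipocyte markers and the CPM of albumin (Alb), all on log scales; points are mice with their numbers, colored by group. Model mouse 3 stands apart from Model mice 1 and 2 in distal markers (42.8 against 280.3 and 268.6 CPM) and Slc10a2, Cd36 follows the adipocyte markers, and Ctrl mouse 3 is alone at 100.2 CPM of albumin.

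Between Model and Ctrl, 6 of the 9 tested genes passed both cutoffs (a fold change over 2 at an adjusted p under 0.05), all lower in Model: Apoa4, Apoa1, Fabp6, Fabp1, Mttp and Fabp2. Of all 15484 genes 7.43% passed in either direction, 1.22% lower in Model and 6.21% higher. By adjusted p alone 7 of the 9 passed, with Apob added, against 32.7% of all genes. In 7 of the 9 the Model mice lay below the Ctrl mice without overlap on the TMM scale, Apoa4 included by the margin given above, as did 23.2% of all genes. The genes were chosen with this comparison known, so nothing is read from these counts. The 9 log2 fold changes had a median of -1.72, and that of all genes was 0.0055. Without Ctrl mouse 3 the count was 3 (Apoa1, Fabp2 and Fabp6), and 4.95% of all genes passed. Without Model mouse 3 it was 7, with Slc10a2 added, and 10.7% of all genes passed. By limma on log2(FPKM + 1) 4 of the 9 passed (Apoa1, Fabp2, Fabp6 and Slc10a2), and 3.26% of all genes.

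Swimming was compared within the treated mice, within the untreated mice, and as a difference of differences. Between Model_Swim and Model edgeR called 0 of the 9 genes and 0.071% of all genes, and 5 of the 9 and 13.6% of all genes had an unadjusted p under 0.05. DESeq2 called 1 of the 9, Fabp6, and 0.742% of all genes. All 9 log2 fold changes were above 0, with a median of 1.15 against -0.0085 for all genes, and in 6 of the 9 (Apoa1, Apoa4, Apob, Mttp, Fabp2 and Fabp6) all Model_Swim mice exceeded all Model mice, as did 8.32% of all genes in that direction. This comparison shares the 3 Model mice with that of Model and Ctrl, so the opposite signs of both are not separate observations. Without Model mouse 3, 2 of the 9 passed, Fabp2 and Slc10a2, and 2.09% of all genes. Neither gene passed with any other single mouse left out. Between Ctrl_Swim and Ctrl edgeR called 0 of the 9 and 0.168% of all genes, DESeq2 called 0 and 0.568%, and 2 of the 9 and 17.6% of all genes had an unadjusted p under 0.05. All 9 overlapped between these groups, where 27.4% of all genes did not. Between Model_Swim and Ctrl_Swim edgeR called 0 of the 9 and 1.0% of all genes, DESeq2 called 1, Fabp6, and 1.85%, and 1 of the 9 and 22.4% of all genes had an unadjusted p under 0.05. Apoa1, Fabp2 and Fabp6 were lower in all Model_Swim mice than in any Ctrl_Swim mouse, 3 of the 9, as were 16.5% of all genes.

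The test of whether swimming acted differently in treated and untreated mice, the interaction, called 0 of the 9 genes and 0.0% of all genes in edgeR, with 5 of the 9 and 19.0% of all genes at an unadjusted p under 0.05. DESeq2 called 1 of the 9, Apoa4, and 1.51% of all genes. In edgeR the Apoa4 interaction was 8.02 on the log2 scale (SE 2.32, adjusted p = 0.135), and 4.92 without Ctrl mouse 3. By limma on log2(FPKM + 1) it was 1.60, so its size depended on 1 mouse and on the treatment of the sparse counts given above. The interaction on the log2 scale was 0.96 (SE 0.234, adjusted p = 0.115) for Apob, 1.25 (SE 0.438, adjusted p = 0.169) for Fabp2 and 3.65 (SE 1.24, adjusted p = 0.162) for Apoa1. Cd36 was the 1 gene with a value below 0, at -0.26 (SE 0.648, adjusted p = 0.860). The interaction contains the difference between Model and Ctrl with its sign turned. The genes were chosen mainly for that difference, so nothing is read from the signs or the counts of this test. Without Model mouse 3 edgeR called 3 of the 9, Apob, Fabp2 and Slc10a2, and 1.58% of all genes. These genes did not pass with any other single mouse left out.

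**Figure D3:**
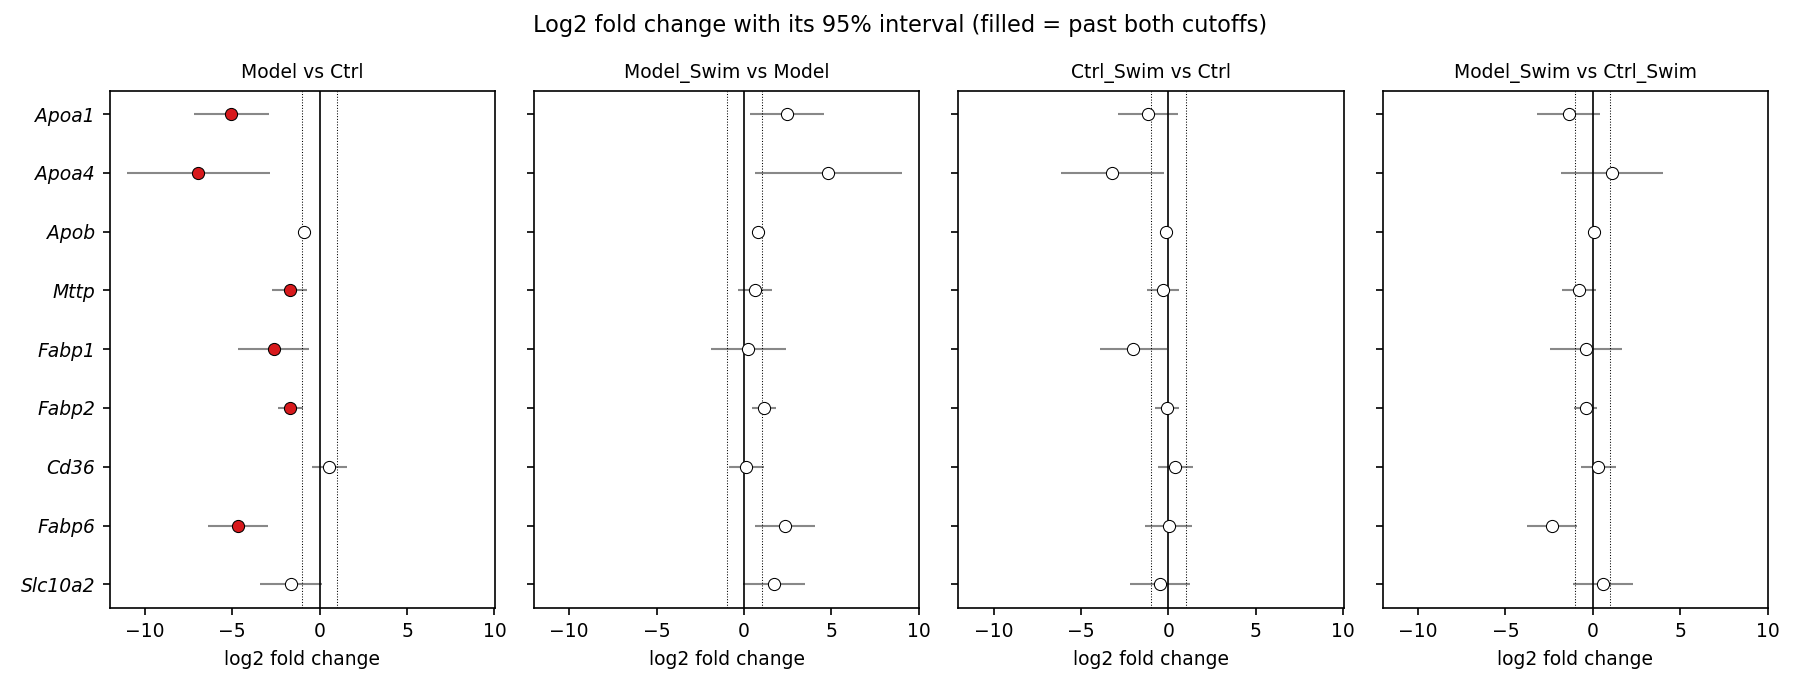
Log2 fold change of the 9 tested genes in 4 comparisons with its 95% interval; filled points passed both cutoffs and dotted lines mark a 2-fold change. The 6 filled points are all in the comparison of Model with Ctrl and lie below 0, and all 9 points of Model_Swim against Model lie above 0.

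Beyond the 10 genes, 110 other genes of lipid uptake, export, bile acid handling and their regulation were in the matrix, and 96 were tested. Between Model and Ctrl 5 of the 96 passed higher (Apoe, Clu, Abca1, Fabp5 and Angptl4) and 4 passed lower (Npc1l1, Apoh, Creb3l3 and Hnf4g). Of all tested genes 6.21% passed higher and 1.22% lower, 7.43% in either direction. The median log2 fold change of the 96 was -0.24, and that of all genes was 0.0055. Of the 6 other tested apolipoproteins 2 rose and 1 fell. Apoe, the apolipoprotein of macrophages and liver, was 299.9 to 344.2 CPM in Ctrl and 639.1 to 813.3 CPM in Model mice, with no overlap (log2 fold change 1.19, SE 0.118, adjusted p = 0.000316). The 9 macrophage markers summed to 408.4 to 433.2 CPM in Ctrl and 786.6 to 888.1 CPM in Model mice, and their part in the Apoe level was not tested. Clu, which encodes clusterin, rose by 1.71 (SE 0.299, adjusted p = 0.00239).

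Of the 21 other tested genes of chylomicron assembly and triglyceride resynthesis none passed both cutoffs in edgeR or DESeq2, 12 were below 0.05 unadjusted and 10 by adjusted p. Their median log2 fold change was -0.25, with 17 of the 21 below 0. Between Model and Ctrl 7001 of all 15484 tested genes were below 0.05 unadjusted, and 32.7% by adjusted p. Of 10 other genes of fatty acid uptake and binding 1 passed, Fabp5, the epidermal fatty acid-binding protein, which was higher in Model by 2.37 on the log2 scale (SE 0.791, adjusted p = 0.0402) while Fabp1, Fabp2 and Fabp6 were lower. Fabp5 also reached 75.5 CPM in Ctrl_Swim mouse 4 against 10.3 and 20.1 CPM in Ctrl_Swim mice 3 and 2, so it varied within groups. Of 9 genes of sterol absorption Npc1l1, the cholesterol importer of the enterocyte, fell by 3.81 on the log2 scale (SE 0.744, adjusted p = 0.00395), and Abca1, a cholesterol exporter, rose by 1.19 (SE 0.131, adjusted p = 0.000407). Angptl4, an inhibitor of lipoprotein lipase, rose by 2.10 (SE 0.527, adjusted p = 0.0123), and it was the 1 of 10 lipase genes to pass. None of 7 other bile acid genes (4 unadjusted) or of 10 PPAR target enzymes (4 unadjusted) passed in edgeR or DESeq2. In the other 3 comparisons edgeR called 0 of the 96 genes, with 20 (Model_Swim against Model), 19 (Ctrl_Swim against Ctrl) and 16 (Model_Swim against Ctrl_Swim) at an unadjusted p under 0.05, where DESeq2 called 2, 0 and 1. In the same order 13.6%, 17.6% and 22.4% of all genes had an unadjusted p under 0.05. DESeq2 called 0.742%, 0.568% and 1.85% of all genes there.

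**Figure D4:**
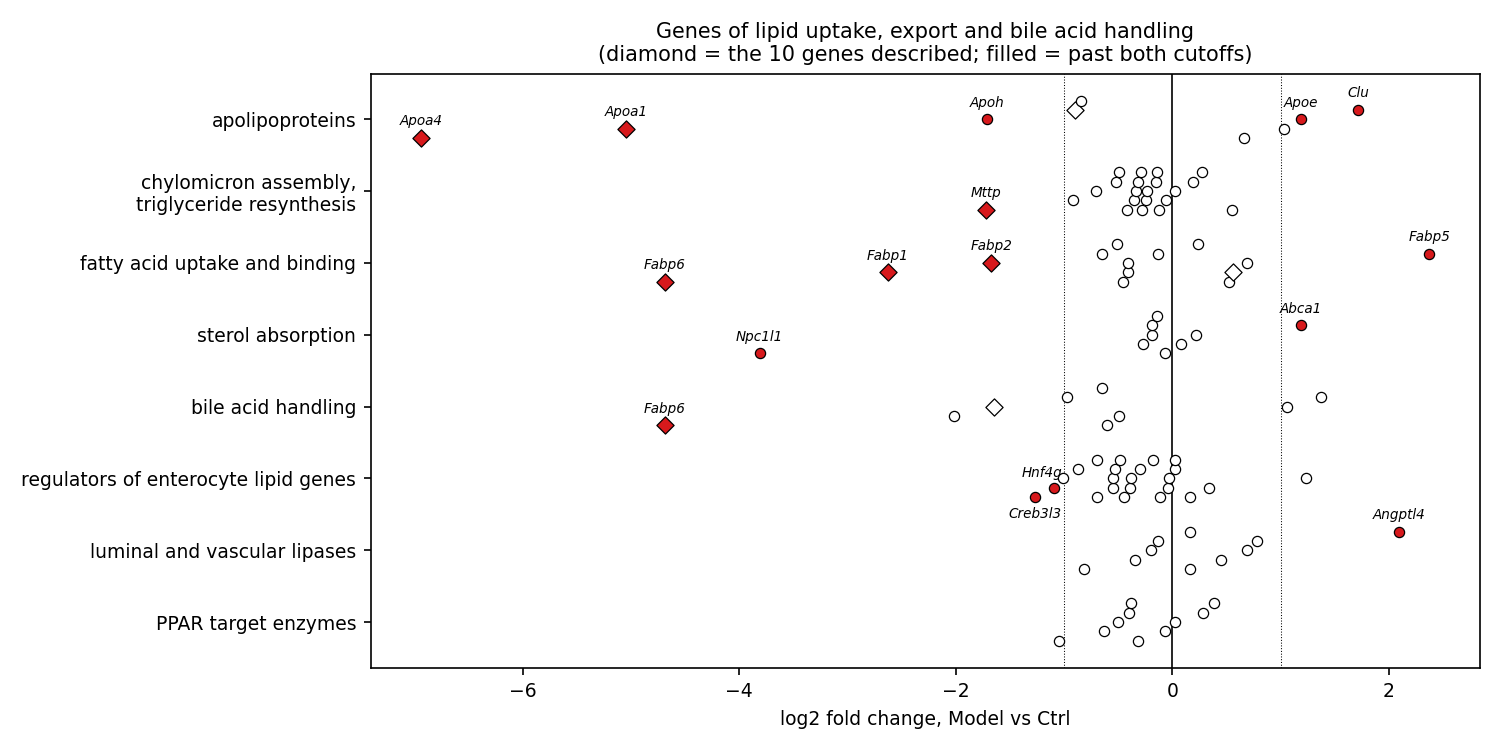
Log2 fold change between Model and Ctrl for every tested gene of 8 lists of lipid genes; diamonds are the 10 genes described above where tested, circles the others, filled symbols passed both cutoffs, dotted lines mark a 2-fold change, and Fabp6 appears in 2 lists. Most circles lie within 2-fold, and the largest differences below 0 are Apoa4, Apoa1, Fabp6 and Npc1l1.

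Among 23 regulators of enterocyte lipid genes 2 passed both cutoffs, both lower in Model. Of all tested genes 1.22% passed lower in Model and 7.43% in either direction. Creb3l3, a membrane-bound activator of apolipoprotein genes, was 10.9, 7.09 and 14.5 CPM in Ctrl and 3.86, 4.58 and 4.99 CPM in Model mice (log2 fold change -1.27, SE 0.405, adjusted p = 0.0336). Hnf4g, a nuclear receptor of the enterocyte, was 56.3, 59.9 and 59.6 CPM in Ctrl and 21.2, 26.6 and 34.8 CPM in Model mice (-1.09, SE 0.134, adjusted p = 0.000591). In Model_Swim mice Creb3l3 stood between 9.65 and 18 CPM and Hnf4g at 43.5, 44.4 and 43.0 CPM, above all Model mice, with adjusted p of 0.173 and 0.0916 (edgeR). Hnf4a (-0.38, adjusted p = 0.0143) and Cdx1 (-0.70, adjusted p = 0.000407) were lower by less than 2-fold. Cdx2, named after its values were seen because of the motif above, had a log2 fold change of -0.87 (adjusted p = 0.00341).

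The 9 epithelial genes were lower in Model as well, with a median log2 fold change of -0.42, summing to 13020 to 14700 CPM in Ctrl and 9837 to 10430 CPM in Model mice. Of 16 tested markers of small-intestinal enterocytes 7 passed, all lower in Model, with a median of -1.11. Of all 15484 tested genes 1.22% passed lower in Model and 6.21% higher, and their median was 0.0055. Sucrase-isomaltase (Sis) was 9.66, 49.4 and 52.8 CPM in Ctrl and 0.214, 0.327 and 5.74 CPM in Model mice (log2 fold change -4.17, SE 0.945, adjusted p = 0.00780). The peptidase Anpep was 54.7, 166.2 and 236.8 CPM in Ctrl and 39.1, 35.8 and 34.04 CPM in Model mice (-2.07, SE 0.465, adjusted p = 0.00749). Summed over the 18 genes these markers stood at 473.2, 715.0 and 894.8 CPM in Ctrl, 296.3 to 370.2 CPM in Model and 424.4 to 490.8 CPM in Model_Swim mice. Ctrl mouse 1 was the lowest of its group here and also for every tested gene of the 10 except Fabp2, Cd36 included. Levels within the marker lists were uneven, and lactase (Lct) reached at most 0.664 CPM and the ileal hormone Fgf15 at most 0.990 CPM. The 5 tested ileal markers were all below 0 between Model and Ctrl, with a median of -1.37, and 1 of them passed, Amn, a part of the vitamin B12 receptor. The 7 ileal markers summed to 191.7 to 252.1 CPM in Ctrl mice, and to 67.9, 58.4 and 188.6 CPM in Model mice 1 to 3.

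Markers of mature colonocytes, the absorptive cells of the colon itself, were lower in Model by their sum. The 10 markers summed to 13170 to 14940 CPM in Ctrl and to 4803, 8055 and 11100 CPM in Model mice, with no overlap, and to 13340 to 14920 CPM in Model_Swim mice. For Model against Ctrl 7 of the 10 were below 0 and 3 above, with a median of -0.54 on the log2 scale. Of the 10 markers 0 passed both cutoffs in edgeR or DESeq2. By adjusted p alone 4 passed (32.7% of all genes), and 6 unadjusted (7001 of all 15484 genes). Over the 12 libraries the colonocyte sum had r = 0.942 with Fabp2, 0.829 with Apob, 0.803 with Slc10a2 and 0.668 with Apoa1. With the other tested genes it ran from 0.281 (Cd36) to 0.642 (Fabp6). The small-intestinal sum had r = 0.968 with Apoa1, 0.965 with Fabp6, 0.957 with Mttp and 0.830 with Fabp2, and from 0.114 (Cd36) to 0.812 (Apob) with the others. The ileal sum had r = 0.941 with Slc10a2 and 0.923 with Fabp2, and from 0.446 (Cd36) to 0.768 (Apob) with the others. These correlations are a description over libraries that share groups. Of 8 Paneth cell markers 3 passed lower in Model (Mptx2, Itln1 and Ang4) and 1 passed higher (Mmp7), against 1.22% and 6.21% of all genes. The Paneth markers summed to 2361 to 3240 CPM in Ctrl, 598.3 to 1182 CPM in Model and 318.8 to 582.6 CPM in Ctrl_Swim mice. Whether the share of any of these cells differed between the samples was not tested.

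The 9 tested genes were compared over the 12 libraries by Pearson's r of log2 CPM, given as a description because the points share groups and libraries. The highest values were 0.9503 for Apoa1 and Fabp6, 0.924 for Fabp6 and Mttp and 0.918 for Apoa1 and Mttp. Fabp2 had r = 0.872 with Apob, 0.835 with Slc10a2, 0.815 with Fabp6 and 0.810 with Apoa1, and Cd36 had r from -0.054 to 0.527 with the other 8. Over all genes with a mean of at least 1 CPM, the 10 themselves left out, those most alike to Fabp6 were AY761184 (r = 0.976), Defa29 (r = 0.967), a defensin of Paneth cells whose reads can be split among near-identical copies, and Uqcc3 (r = 0.961). Uqcc3 led the list for Apoa1 as well (r = 0.9502), and Cep19 was also among those most alike to it (r = 0.939). For Mttp they were Anpep (0.956), Ccl25 (0.946) and Mettl5 (0.946). Those most alike to Fabp2 included Sult1d1 (0.984) and Ethe1 (0.983), and for Slc10a2 they were Prap1 (0.979), Slc51a (0.971) and Gpd1 (0.961). Erlin1, Ppfia3 and Lnx1 led for Apob (0.944, 0.944 and 0.942), and Npr3 and Tusc5 followed Fabp4 for Cd36 (both 0.929). For the sparse counts of Apoa4 (Cdnf, r = 0.847) and Fabp1 (Lrrc1, r = 0.920) the order is of little weight.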

How the data were processed

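Colorectal RNA of 12 mice was sequenced from stranded, poly(A)-selected libraries, and the labels give 3 mice per group. The authors deposited raw read counts per gene, made with HTSeq-count from HISAT2 alignments (GRCm38.p6) of Trimmomatic-trimmed reads. They also deposited FPKM, credited to Cufflinks; in these files FPKM divided by a gene's share of counts was constant over libraries (median CV 1.1e-06%), so FPKM carry no information beyond the counts. Versions of these tools and the annotation are not given in the sources used here, and 12 gene names in the table are dates. Nothing says whether counting used the strand.

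Counts were fitted in R 4.3.3 with edgeR 4.0.16 (filterByExpr with a minimum count of 10, TMM, quasi-likelihood test, 4 groups in one fit), and p-values were adjusted by Benjamini-Hochberg over 15484 genes. A gene passed at an adjusted p under 0.05 with a fold change over 2 or under 0.5. Contrasts were Model against Ctrl, Model_Swim against Model, Ctrl_Swim against Ctrl, Model_Swim against Ctrl_Swim and the interaction. On simulated counts for Model against Ctrl (15488 genes), 179 of 200 planted changes were recovered with 5 other calls. The planted changes were 4-fold, in genes with a mean of at least 1 CPM. Smaller changes, or changes in genes below that level, were not planted. Alternatives were DESeq2 1.42.0, its size factors, no filter, only the groups compared, a replicate block, limma 3.58.1 on log2 FPKM, and leaving out mice.

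The 10 genes and all lists were chosen with earlier results of these data known. Named beside them are list members with the 4 largest differences past the cutoffs, the 3 most abundant, the genes around the Apoa cluster, and the 3 genes most alike to each of the 10, leaving out names with Gm or Rik. Some genes that this rule picks are not reported here. Intervals of ratios of counts are exact and cover counting error only.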

Additional observations from a re-analysis of the deposited data

How the results depend on the processing

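The number of the 9 genes past the cutoffs between Model and Ctrl was 6, from 3 to 7 with 1 mouse left out (3 without Ctrl mouse 3) and 3 without Model mice 1 and 3, where the lone Model mouse was assumed to vary like the other groups. Between Model_Swim and Model it was 0, but 1 in DESeq2, 0 to 2 with 1 mouse left out (2 without Model mouse 3) and 2 without Model mice 1 and 3. For Model_Swim against Ctrl_Swim it was 0, but 1 in DESeq2, 1 with only the groups compared, and 0 to 1 with 1 mouse left out. For the interaction it was 0, but 1 in DESeq2, 0 to 3 with 1 mouse left out and 2 without Model mice 1 and 3. The cause of these changes was not tested. Of the other lipid genes 9 passed between Model and Ctrl, 6 to 17 with 1 mouse left out (17 without Model mouse 3), 14 without Model mice 1 and 3 and 39 by adjusted p alone. In the remaining comparisons their count of 0 became 2 (DESeq2), 0 to 6 (1 mouse left out, 6 without Model mouse 3) and 7 (without Model mice 1 and 3) for Model_Swim against Model, 1 (without Model mice 1 and 3, or by adjusted p alone) for Ctrl_Swim against Ctrl, and 1 (DESeq2, only the groups compared, or without Model mice 1 and 3) and 5 (adjusted p alone) for Model_Swim against Ctrl_Swim. Reversed signs were seen only for log2 fold changes that did not pass. With 1 mouse left out, Model_Swim against Ctrl_Swim ranged from -0.31 to 1.48 for Apoa4, from -0.043 to 0.19 for Apob (also -0.036 and -0.013) and from -0.80 to 0.59 for Fabp1. Ctrl_Swim against Ctrl ranged from -0.24 to 0.032 for Apob, from -0.68 to 0.18 for Mttp, from -0.29 to 0.023 for Fabp2 and from -0.85 to 0.42 for Fabp6 (also -0.43). Model_Swim against Model ranged from -0.18 to 1.05 for Fabp1 (also -0.058) and from -0.18 to 1.05 for Cd36 (also -0.16 and -0.098). Cd36 ranged from -0.34 to 0.88 for Model against Ctrl and from -0.60 to 0.63 in the interaction. Without Model mice 1 and 3 Cd36 had -0.41 for Model against Ctrl and 0.70 for the interaction. By limma Fabp2 had 0.0014 for Ctrl_Swim against Ctrl with every pseudocount and filter tried. With the replicate number as a block (replicate block), 5 genes passed for Model against Ctrl, and the signs of Apob for Model_Swim against Ctrl_Swim (-0.013), Fabp6 for Ctrl_Swim against Ctrl (-0.93) and Cd36 in the interaction (0.23) turned; the numbers did not pair the mice (r from -0.26 to 0.56 over 15 pairs, 4 over 0.1). At 3 mice per group and these depths, Apoc3, Apoa4 and Fabp1 were limited by counts.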
